A study of Mus musculus musculus x M. m. domesticus and Mus musculus domesticus and Mus musculus with 12 samples.

Results

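Imprinted genes are transcribed mainly from the copy inherited from 1 parent, because DNA methylation laid down in the oocyte or in the male germline marks the parental copies differently. *Meg3*, a long noncoding RNA, *H19*, another noncoding RNA, and *Cdkn1c*, which encodes an inhibitor of cyclin-dependent kinases, are textbook examples of genes expressed from the maternal copy. *Dlk1*, the neighbour of *Meg3* that encodes a membrane-bound ligand related to the Notch ligands, and *Peg3*, a zinc finger gene, are expressed from the paternal copy. In the male germline these marks are erased and set anew, and the control regions of the *Dlk1*-*Meg3* and *H19* clusters are among the few that receive their methylation there.

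These 5 genes were chosen by name, in the order *Meg3* (ENSMUSG00000021268_at), *Dlk1* (ENSMUSG00000040856_at), *H19* (ENSMUSG00000000031_at), *Peg3* (ENSMUSG00000002265_at) and *Cdkn1c* (ENSMUSG00000037664_at), and not by their values. Of the 5, 2 have values among the 7000 genes used here, *Meg3* and *Cdkn1c*, both of them maternally expressed. *Dlk1*, *H19* and *Peg3* were not analysed here, so no paternally expressed gene could be set beside the maternally expressed pair. *Meg3* starts at position 110784505 on chromosome 12 of NCBI build 37. No position is given for *Cdkn1c* in the sources used here. No sequence of either gene was in the sources used.

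The arrays, 1 Affymetrix mouse genome array per animal, carried RNA of the whole testis. There were 12 males, all 60 days old, and each of the 4 crosses gave 3. Every male was an F1 between wild-derived inbred strains, written here with the mother first. *DxD* males had a LEWES/EiJ mother and a WSB/EiJ father, both *M. domesticus*, and *MxM* males had a PWK/PhJ mother and a CZECHII/EiJ father, both *M. musculus*. The reciprocal hybrids were *DxM* (LEWES/EiJ mother, PWK/PhJ father), which are fertile, and *MxD* (PWK/PhJ mother, LEWES/EiJ father), which are sterile. *DxD* and *DxM* males thus had mothers of the same strain, as did *MxM* and *MxD* males. If only the maternal copy is active, the first pair read the same LEWES/EiJ allele and the second pair the same PWK/PhJ allele, while the reciprocal hybrids read different alleles. Mothers of 1 strain also pass on the same X chromosome and mitochondria, and an effect of these cannot be told apart from one of the maternal allele. The arrays do not separate the 2 alleles, and whether either gene was imprinted in these testes was not measured. All values below are log2 expression levels or differences between them. The array was designed on a mainly *M. domesticus* genome, so that weaker binding of *M. musculus* transcripts to the probes and less transcript cannot be told apart.

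*Meg3* was lowest in the sterile hybrid. Its level was 5.49, 5.48 and 5.34 in *MxD* replicates 1, 2 and 3, and 5.97, 5.73 and 5.76 in the *DxM* males. In the *DxD* males it was 5.83, 5.98 and 5.82, and in the *MxM* males 5.80, 5.58 and 5.81. All 3 *MxD* males lay below all 9 fertile males. The gap was narrow, 0.09 between the highest *MxD* male and the lowest fertile one, *MxM* replicate 2. *Meg3* was also a dim gene, with a mean of 5.71 over the arrays. The dimmest 25% of genes have means below 7.04. Among the fertile genotypes, *DxM* overlapped with both others, and the *DxD* males, from 5.82, lay just above the *MxM* males, up to 5.81. In descending order of the means, *Meg3* had a level of 5.88 ± 0.09 (SD, n = 3) in *DxD*, 5.82 ± 0.13 in *DxM*, 5.73 ± 0.13 in *MxM* and 5.44 ± 0.08 in *MxD*.

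**Figure D1:**
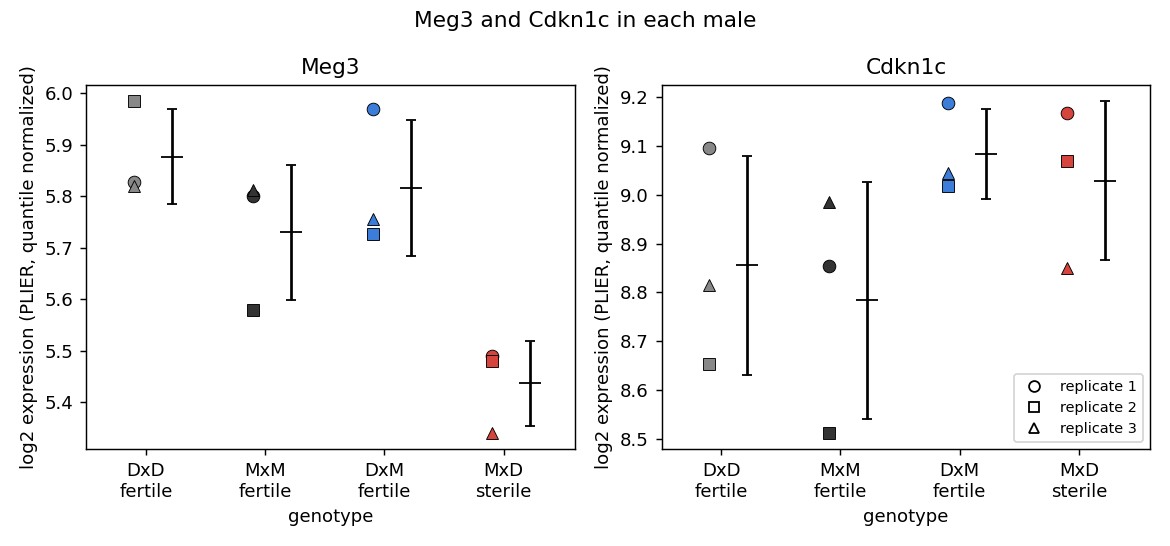
Log2 expression of *Meg3* (left) and *Cdkn1c* (right) in each of the 12 males by genotype, with 1 symbol per replicate number and the mean ± SD of the 3 males beside them (the vertical axes differ and do not start at 0). The 3 *MxD* males lie below all 9 fertile males for *Meg3*, between 5.34 and 5.49, whereas for *Cdkn1c* the *MxD* males, at 8.85 to 9.17, overlap with every other genotype.

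*Cdkn1c* showed no such separation. Its level was 9.17, 9.07 and 8.85 in the *MxD* males and 9.19, 9.02 and 9.04 in the *DxM* males. In the *DxD* males it was 9.10, 8.65 and 8.82, and in the *MxM* males 8.85, 8.51 and 8.98. The *DxM* males, from 9.02, lay just above the *MxM* males, up to 8.98, and all other pairs of genotypes overlapped. The spread was widest within the crosses of 1 subspecies. The means fell in the order *DxM* (9.08 ± 0.09, SD, n = 3), *MxD* (9.03 ± 0.16), *DxD* (8.86 ± 0.22) and *MxM* (8.78 ± 0.24), and no neighbours in this order differed beyond their spread.

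The reciprocal hybrids carry the same autosomal genomes from opposite parents. Each gene was tested with limma in a fit of all 4 genotypes, and p-values were adjusted over all 7000 genes (Benjamini-Hochberg, called at 5%). *Meg3* was lower in the sterile than in the fertile hybrid, with a log2 difference of -0.38 (standard error 0.09, 95% interval -0.58 to -0.18, limma adjusted p = 0.034), that is at 0.769 of the *DxM* level. *Cdkn1c* differed by -0.05 (standard error 0.14, 95% interval -0.36 to 0.25, limma adjusted p = 0.88), which leaves room for a level between 0.777 and 1.19 of that in *DxM*. So 1 of the 2 genes was called in this contrast, where 6.5% of all 7000 genes were. A fit with a replicate block called 1201 genes or 17.2%, and the limma adjusted p of *Meg3* was 0.020. *Meg3* was among the genes with the lowest differences, with 260 genes or 3.71% below it.

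The study itself listed *Meg3* among the genes lower in these same *MxD* males, so its differences from the fertile genotypes are not independent evidence of that direction. The call was also close to the threshold. Leaving out any 1 *MxD* or *DxM* male, or *DxD* replicate 3, raised the limma adjusted p to between 0.054 and 0.147. The difference itself stayed between -0.43 and -0.30 when each of the 12 males was left out in turn. The methods' gene-by-gene test with unequal variances gave an unadjusted p of 0.019 for *Meg3* and an adjusted p of 0.273.

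Within a strain of mother, *Meg3* was called for the sterile hybrid and not for the fertile one. *MxD* and *MxM* males, both with PWK/PhJ mothers, differed by -0.29 (standard error 0.09, limma adjusted p = 0.034). Neither *Meg3* nor *Cdkn1c* was called between *DxM* and *DxD*, both with LEWES/EiJ mothers, where *Meg3* differed by -0.06 (95% interval -0.26 to 0.14, limma adjusted p = 0.77). Over all genes, 30.3% were called between *MxD* and *MxM* and 12.1% between *DxM* and *DxD*. With the replicate block these shares were 43.9% between *MxD* and *MxM* and 22.6% between *DxM* and *DxD*. The call between *MxD* and *MxM* was lost without *MxM* replicate 1, *MxM* replicate 3, *MxD* replicate 2 or *MxD* replicate 3, with limma adjusted p-values from 0.055 to 0.123. The differences of -0.29 and -0.06 were not shown to differ from each other. That comparison is the same test as the father's subspecies given below (limma adjusted p = 0.25), on another scale and with opposite sign.

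*Meg3* was also lower in *MxD* than in *DxD*, which differ in both parents, by -0.44 (standard error 0.09, 95% interval -0.64 to -0.24, limma adjusted p = 0.0047). This was called without any 1 male and under every alternative that gave a value, with adjusted p-values from 2.9e-04 to 0.048. Here 31% of all genes were called. Among the fertile genotypes no difference in *Meg3* was called. *MxM* and *DxD* differed by -0.15 (95% interval -0.35 to 0.06, limma adjusted p = 0.26), with 31.9% of all genes called, and *DxM* and *MxM* by 0.09 (95% interval -0.12 to 0.29, limma adjusted p = 0.58), with 16.9% called. The first of these was called in 1 of 23 alternatives, with array weights estimated gene by gene (difference -0.29, limma adjusted p = 0.0078).

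The crosses also allow the subspecies of the mother and of the father to be compared over all 12 males. *Meg3* was lower with an *M. musculus* than with an *M. domesticus* mother by a log2 difference of -0.26 (standard error 0.07, 95% interval -0.41 to -0.12, limma adjusted p = 0.013), in a contrast where 26.5% of all genes were called. It was called under all 20 alternatives that gave a value, with adjusted p-values from 0.0019 to 0.044. These do not include the methods' gene-by-gene tests or limma on the 2 genotypes alone, which compare only pairs of genotypes. Under those settings the call of *Meg3* between *MxD* and *DxM* was lost. The difference was not shared evenly by the fathers. With an *M. domesticus* father it was the -0.44 between *MxD* and *DxD*, and with an *M. musculus* father it was -0.09, from the *DxM* and *MxM* levels given above. These 2 differences did not themselves differ past the threshold (interaction of mother and father, limma adjusted p = 0.080). The groups by mother overlapped, since 2 of the *MxM* males, at 5.80 and 5.81, lay above the lowest male with an *M. domesticus* mother, at 5.73. The subspecies of the father gave 0.12 for *Meg3* (95% interval -0.03 to 0.26, limma adjusted p = 0.25), with 21.1% of all genes called. Each cross had fathers of a different strain, who also gave the Y chromosome. None of these contrasts holds the father's strain fixed, and effects of the strain or the Y chromosome cannot be told apart from them.

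For *Cdkn1c* neither parent gave a call. With an *M. musculus* mother it differed by -0.06 (standard error 0.10, 95% interval -0.28 to 0.16, limma adjusted p = 0.68). With an *M. musculus* father it differed by -0.01 (95% interval -0.23 to 0.21, limma adjusted p = 0.97), and the sign of this value changed with the setting. The maternal effects of the 2 genes were not tested against each other.

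**Figure D2:**
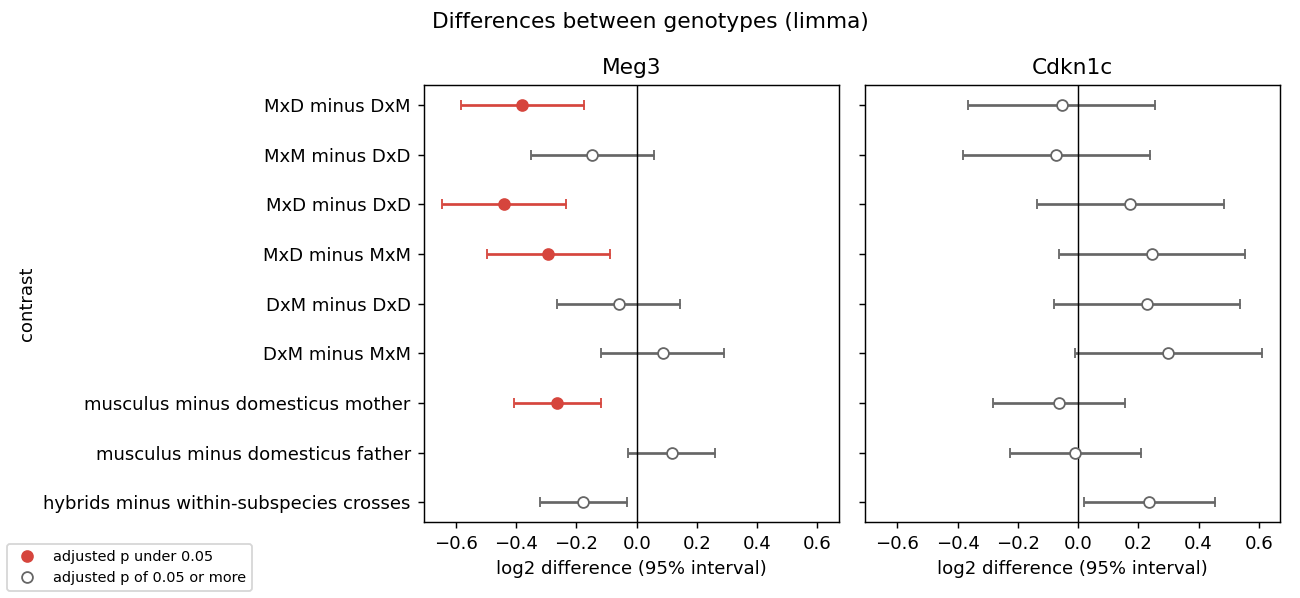
Log2 differences of *Meg3* (left) and *Cdkn1c* (right) in 9 contrasts, with 95% intervals from the limma fit of all 12 males. Filled points have an adjusted p under 0.05, which for *Meg3* are the 3 contrasts with *MxD* and the subspecies of the mother (-0.26), and for *Cdkn1c* none.

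What *Cdkn1c* showed was a higher mean in both hybrids than in both within-subspecies crosses. *DxM* was 0.30 above *MxM* (95% interval -0.01 to 0.61, limma adjusted p = 0.18) and 0.23 above *DxD* (95% interval -0.08 to 0.54, limma adjusted p = 0.36). *MxD* was 0.25 above *MxM* (limma adjusted p = 0.21) and 0.17 above *DxD* (limma adjusted p = 0.38). None of the 4 was called. The mean of the hybrids minus the mean of the within-subspecies crosses, a contrast added after seeing the data, was 0.24 (standard error 0.10, 95% interval 0.02 to 0.46). It did not pass adjustment (limma adjusted p = 0.12). It did with the replicate block (limma adjusted p = 0.044) and with array weights (0.028 by default, 0.0066 gene by gene). With arrays centred on the mitotic genes described below the difference was 0.08 (limma adjusted p = 0.56). Centring subtracts the mean deviation of those genes, which was higher in both hybrids, so the smaller value restates that shift. In this contrast 21.2% of all genes were called, and *Meg3* went the other way, by -0.18 (limma adjusted p = 0.080). For each gene this contrast is the same test as the interaction of mother and father, given above for *Meg3*, and not a second result. Of the 6 within-subspecies males, 3 had less *Cdkn1c* than every hybrid male. Fathers of the WSB/EiJ and CZECHII/EiJ strains occur only in the within-subspecies crosses. An effect of the father's strain therefore cannot be told apart from one of being a hybrid.

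Whole testis mixes cell types, and in such bulk samples fewer cells of a type and less RNA per cell cannot be told apart. The study's gene table places each gene in the cell type where it is most induced, and it puts *Meg3* with the mitotic genes, those of spermatogonia. No class is given for *Cdkn1c* in the rows used here. These rows are only part of the study's gene table and hold 1102 genes with a cell type out of 1997. The classes below are therefore incomplete, and their medians and counts cover only the genes in these rows. Most called mitotic genes were higher in the sterile hybrid, unlike *Meg3*. Between the reciprocal hybrids the 367 mitotic genes had a median difference of 0.16, against -4.2e-04 over all 7000 genes, with 28 called higher and 4 lower, and 2 of the 367 (0.545%) had a lower difference than *Meg3*. The median was 0.11 over 142 somatic genes, -0.04 over 324 meiotic genes and -0.20 over 269 postmeiotic genes, of which 51 (19%) lay below *Meg3*.

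**Figure D3:**
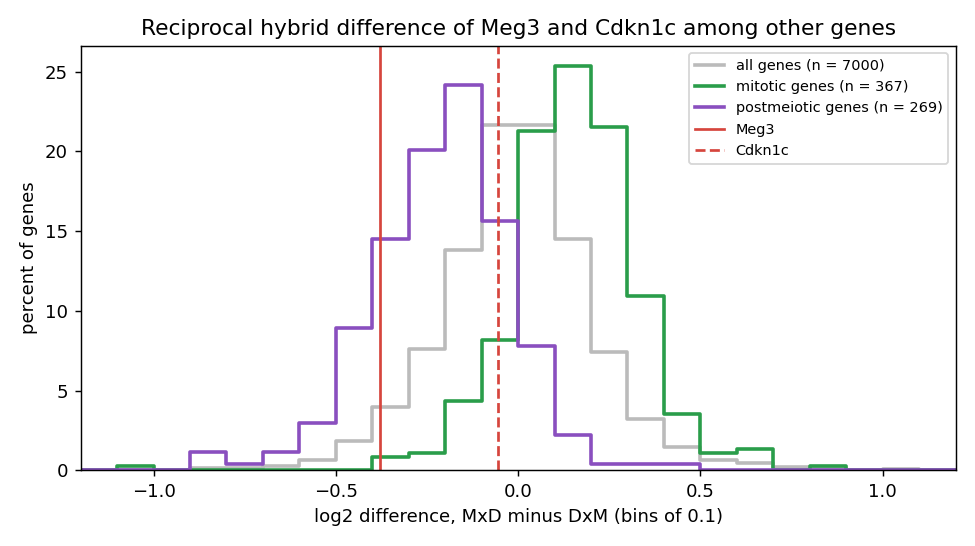
Distribution of the log2 difference between *MxD* and *DxM* over all 7000 genes, 367 mitotic and 269 postmeiotic genes, as the percentage of genes in bins of 0.1, with vertical lines at *Meg3* (-0.38) and *Cdkn1c* (-0.05). *Meg3* lies below nearly all mitotic genes, whose median is 0.16, and within the range of the postmeiotic genes, whose median is -0.20.

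The classes also differed male by male. The mean deviation of the mitotic genes from their median over the 12 arrays was 0.10 to 0.22 in the 3 *MxD* males and at most 0.02 in the fertile males, while *Meg3* deviated by -0.34 on average in *MxD*. The postmeiotic genes deviated by -0.24 to -0.13 in the *MxD* males and by 0.01 or more in every fertile male, the same direction as *Meg3*. The part of these shifts in the *Meg3* difference was not tested. With every array centred on the mitotic genes, an alternative added after seeing the data, the difference of *Meg3* between *MxD* and *DxM* was -0.54 (limma adjusted p = 0.0060). With arrays centred on the somatic genes it was -0.47 (limma adjusted p = 0.0097). Such centring subtracts the mean deviation of the class from every gene in each male. The mitotic mean was 0.15 in *MxD* and -0.01 in *DxM*, and the somatic mean was 0.07 and -0.02. The change from the uncentred difference of -0.38 therefore restates these class shifts and is no separate evidence on *Meg3*.

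**Figure D4:**
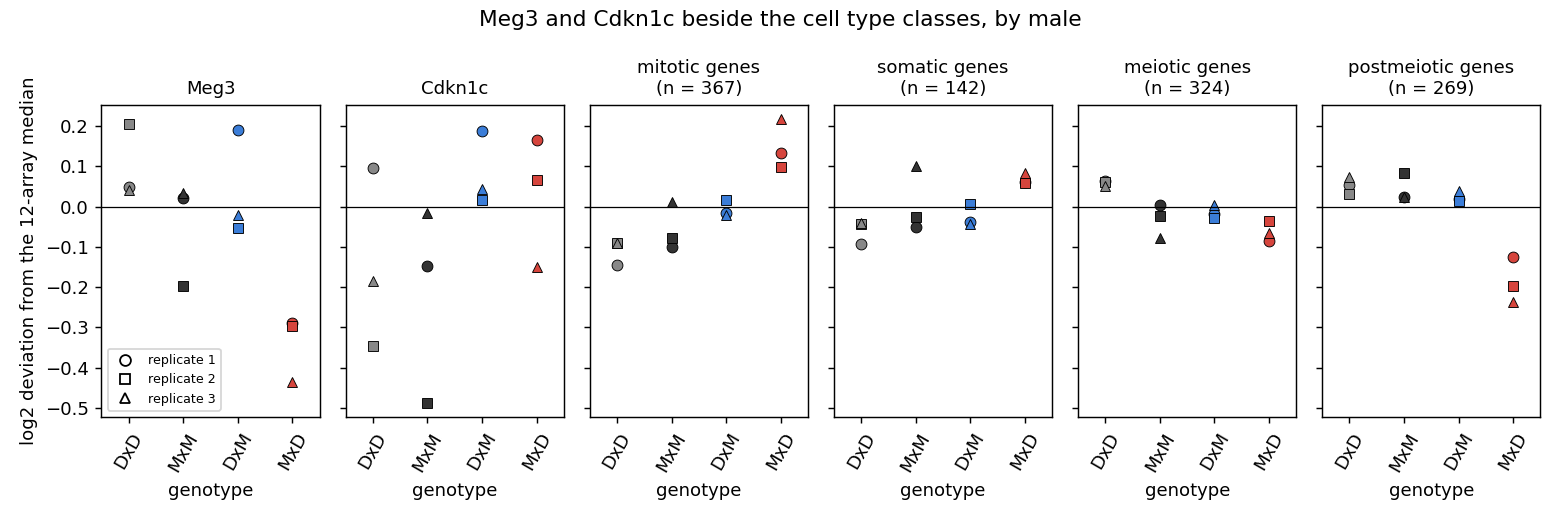
Log2 deviation from the 12-array median in each male, for *Meg3*, for *Cdkn1c* and as the mean over the mitotic, somatic, meiotic and postmeiotic genes, by genotype and with 1 symbol per replicate number. In the 3 *MxD* males the mitotic mean is at 0.10 to 0.22, while *Meg3* and the postmeiotic mean lie below 0.

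*Cdkn1c*, at a mean deviation of 0.08 in *DxM* and 0.03 in *MxD* but -0.15 in *DxD* and -0.22 in *MxM*, was on average higher in both hybrids than in both within-subspecies crosses, which held for none of the 4 classes except the mitotic genes. Its difference between *MxD* and *DxM* lay above that of 34 of the 367 mitotic genes and of 219 of the 269 postmeiotic genes. Of 9 Leydig cell markers, *Cyp17a1*, a steroidogenic enzyme, could be matched by name. It is named in the study's list of genes that differ in these *MxD* males, so its level is given as a description, with no test. Its level was 10.1 ± 0.41 (SD, n = 3) for *DxD*, 9.97 ± 0.63 for *MxM*, 10.6 ± 0.14 for *DxM* and 11.2 ± 0.06 for *MxD*. What part Leydig cells have in either gene was not tested.

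The study marks 9 autosomal mitotic genes as lower in the sterile hybrid, and *Meg3* is 1 of them. Since all 9 were picked for that direction in these males, their values are given as a description, and those named beside *Meg3* and *Dnmt3a* were chosen after their values were seen. Between *MxD* and *DxM* the 9 differences ran from -0.40 (*Sirpa*) to -0.19 (*Baz2b*), and that of *Meg3* was the second largest. The other 2 on chromosome 12 were *Mthfd1*, a folate enzyme, at -0.24 and *Dnmt3a*, a methyltransferase that sets up imprints in germ cells, at -0.21. *Dnmt3a* measured 5.03 ± 0.07 (SD, n = 3) in *MxD* against 5.24 ± 0.02 in *DxM*, and was not called there (limma adjusted p = 0.065). The difference of *Meg3* from *DxM* was -0.38, beside the -0.21 of *Dnmt3a*. From *DxD*, *Meg3* differed by -0.44 and *Dnmt3a* by -0.31, and from *MxM* by -0.29 and -0.30. A link between these genes was not tested.

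The genes whose levels over the 12 arrays were most like those of *Meg3* were ENSMUSG00000044034_at (Pearson r = 0.924) and ENSMUSG00000041272_at (r = 0.921), and 66 of the 6999 other genes had r above 0.8. Both had their lowest mean in *MxD* too, at 5.61 and 6.29, against 6.87 and 6.84 in *DxM*. Within genotypes, after subtracting each genotype's mean, r was 0.616 and 0.601. For *Cdkn1c* they were ENSMUSG00000052642_at (r = 0.888) and ENSMUSG00000022742_at (r = 0.862), and 9 genes had r above 0.8. Here r within genotypes was nearly as high, at 0.869 and 0.845, so these genes followed *Cdkn1c* among males of 1 genotype too. These genes were picked as the highest of 6999 values, so no test is given, and the files used here do not pair their identifiers with names.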

How the data were processed

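Testis RNA of 12 males was measured on 1 array each. According to the study's methods, the authors grouped probes by Ensembl gene with BRAINARRAY chip description files (version 11), summarised them with PLIER, which gives noisy probes less weight, kept genes detected in every male, and quantile normalized. The deposited log2 values of 7000 genes were used as given, and the sorted values are identical in all 12 arrays. Precision is limited by the number of arrays, which have no sequencing depth. Each array is from a different animal.

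limma 3.58.1 in R 4.3.3 fitted 1 mean per genotype to all genes, with 2-sided moderated tests and Benjamini-Hochberg adjustment over 7000 genes per contrast. Procedures were tested on simulated data. Gene names, the position of *Meg3* (NCBI build 37, Ensembl version 52) and cell types came from the study's tables, whose values were not used. The members and lists were chosen with earlier results of these data known. The text was to name the 5 members, listed genes that were called, and the 3 genes most like each member. Of those 3, 2 are printed because they have no name. *Dnmt3a*, the imprint control gene that could be matched, is given although it was not called between *MxD* and *DxM*. Names were at hand for only 45 genes, those the study lists as differing in *MxD*, so whether other listed genes have values was not determined. Of 65 further imprinted genes, 0 could be matched through these names, and 0 of the 29 genes that act with the members, 1 of 24 imprint control genes, 1 of 9 Leydig cell markers, and 0 of the Sertoli, myoid, endothelial, macrophage, fibroblast and germ cell markers.

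The alternatives were the methods' gene-by-gene test (variances unequal or equal), limma on the 2 genotypes alone, the replicate block, a trend with robust prior, array weights, removal of the dimmest 25% of genes, centred arrays, removal of replicate 1 arrays, and each male left out in turn. Another 3 settings (array weights estimated gene by gene, and centring on mitotic or somatic genes) and the contrast of hybrids with within-subspecies crosses were added after seeing the data. Centring on Sertoli markers was not run. Deviations of same-numbered males correlated across genes with r from 0.151 to 0.756 for *MxD* against the fertile genotypes, which was taken as pairing these males by number, and down to -0.051 between other genotypes. The pairing comes from these values alone, with no value for males of different numbers set beside them. The fit reported does not use it, and the replicate block is given as an alternative. The mean variance within genotypes was 0.0147 in *DxD*, 0.0203 in *DxM*, 0.0278 in *MxD* and 0.0879 in *MxM*. Figures were drawn with matplotlib 3.10.9.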

Additional observations from a re-analysis of the deposited data

How the results depend on the processing

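The differences of *Meg3* kept their direction under all alternatives. Between *MxD* and *DxM* the call was lost with the methods' test with unequal variances (adjusted p = 0.273) and equal variances (0.162), the fit of these genotypes alone (0.056) and without all replicate 1 arrays (0.141), and leaving out 1 male gave 0.027 to 0.147. Between *MxD* and *MxM* the same settings gave 0.191, 0.136, 0.097 and 0.094, array weights gave 0.176, gene-by-gene weights 0.182, and leaving out 1 male 0.020 to 0.123. Between *MxM* and *DxD* gene-by-gene weights gave 0.0078. *Meg3* lies among the dimmest 25% of genes, so removing these gave no value for it. Counts of called genes over all 7000 ranged more widely. For *MxD* against *DxM* they were 455 in the fit reported, 172 to 667 with 1 male left out (172 without *MxD* replicate 3), and 0 to 1282 otherwise, the 0 being the methods' test with unequal variances (1050 genes at its unadjusted threshold of 0.05). The others ranged from 468 to 3498 (*MxM* against *DxD*, 2230 reported), 654 to 3543 (*MxD* against *DxD*, 2170), 3 to 3201 (*MxD* against *MxM*, 2122), 170 to 2268 (*DxM* against *DxD*, 844) and 4 to 1918 (*DxM* against *MxM*, 1181). The replicate block changed no call of *Meg3*, with 0.020 for *MxD* against *DxM*.

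For hybrids against within-subspecies crosses, *Meg3* was called with arrays centred on mitotic (0.0040) or somatic genes (0.031), and leaving out 1 male gave 0.046 to 0.182, with calls without *MxM* replicate 2 or *DxM* replicate 1 (0.046 each). *Cdkn1c* was called there with the replicate block (0.044), array weights (0.028) and gene-by-gene weights (0.0066), but not with arrays centred on mitotic genes (0.560, difference 0.08 against 0.24) or somatic genes (0.198, difference 0.19), and leaving out 1 male gave 0.052 to 0.247. The default array weights, whose estimation stopped before its tolerance was reached, gave calls of *Cdkn1c* for *MxD* against *DxD* (0.047) and *DxM* against *DxD* (0.014), and gene-by-gene weights for *MxD* against *MxM* (0.038), *DxM* against *DxD* (0.030) and *DxM* against *MxM* (0.017). These weights rest on 3 males per genotype and ran from 0.272 to 9.71 by default. The block changed no other call. Centring on a class shifts every gene in a male by the same amount, so the change in each centred difference restates the class shifts.

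Small differences of *Cdkn1c*, none of them called, changed sign. Centring on mitotic genes did so for *MxD* against *DxD* (0.656), and removal of all replicate 1 arrays for *MxM* against *DxD* (0.956). For the subspecies of the father the sign changed with array weights (0.867), without replicate 1 arrays (0.825) and with centring on mitotic (0.809) or somatic genes (0.985). Leaving out 1 male gave 0.683 to 0.999 for *MxD* against *DxM*, 0.424 to 0.839 for *MxM* against *DxD*, 0.435 to 0.987 for the mother and 0.707 to 0.996 for the father. The causes were not tested.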
